A study of Mus musculus with 24 samples.

Results

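The genes described here are *Entpd1*, *Nt5e*, *Adora2a*, *Ada*, *Dpp4* and *P2rx7*, which encode the ectoenzymes CD39 and CD73, an adenosine receptor, adenosine deaminase, the surface peptidase CD26 and the ATP-gated channel P2X7. They were chosen by name for their place in the purine and adenosine pathway, with earlier results of these data known, and they are 6 of the 17464 genes in the table. All 6 passed the filter on low values, which asked for 10 normalized counts or more in 4 or more libraries and left 16630 genes to test. The data are bulk RNA-seq libraries of regulatory T (Treg) cells from the spleens of wild-type C57BL/6JRccHsd mice, with no treatment and no transgene. Cells labelled CD62L+ CD44- are resting (rTreg) cells, those labelled CD62L- CD44+ are activated (aTreg) cells, and those labelled KLRG1+ are kTreg cells, for which the label names no CD62L or CD44 gate. The 3 subsets came from the same 4 young mice, aged 2 months, and the same 4 old mice, aged 26 months, so there were 24 libraries in 6 groups of 4, and replicate numbers name the mice within an age. The study used mice of both sexes.

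ATP that leaves activated or dying cells acts as a danger signal, and cells sense it through P2X channels and P2Y receptors. CD39 removes phosphates from ATP and ADP to give AMP, and CD73 converts AMP to adenosine, which binds the receptor made from *Adora2a* and raises cyclic AMP in T cells. Mouse Treg cells are known for carrying CD39 and CD73 together and for making adenosine that restrains other T cells. Adenosine is removed by adenosine deaminase, which turns it into inosine, and by adenosine kinase, which returns it to AMP inside the cell. CD26 cuts peptides at the cell surface and in humans also holds adenosine deaminase there, whereas the mouse protein is known to bind it poorly. P2X7 opens at high ATP and, in mice, also after ADP-ribosylation by ART2 enzymes that use extracellular NAD, a route known to kill Treg cells.

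All 6 genes are protein coding and lie apart from each other in the GRCm39 genome. *Entpd1* (ENSMUSG00000048120) lies on the plus strand at chr19:40600810-40731585 and *Nt5e* (ENSMUSG00000032420) on the plus strand at chr9:88209089-88254146. *Adora2a* (ENSMUSG00000020178) is on the plus strand at chr10:75152560-75170628 and *P2rx7* (ENSMUSG00000029468) on the plus strand at chr5:122781942-122830400. *Ada* (ENSMUSG00000017697) is on the minus strand at chr2:163565705-163592159 and *Dpp4* (ENSMUSG00000035000) on the minus strand at chr2:62159798-62242576.

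Values are normalized counts, which are reads per gene divided by 1 size factor per library, and 1 read was worth between 0.694 and 1.32 of them. The libraries held from 15045747 to 29521942 reads in the table. *Klrg1* was between 16559 and 41561 in kTreg libraries and at most 357 in all others. *Cd44* was between 1628 and 3756 in rTreg, 2932 and 6441 in aTreg and 4859 and 6496 in kTreg libraries, so rTreg and aTreg libraries overlapped. Summed Treg markers (*Foxp3*, *Il2ra*, *Ctla4*, *Ikzf2*, *Cd4* and *Cd3e*) lay between 53893 and 79670 in rTreg and 47593 and 86588 in aTreg libraries. In kTreg libraries they lay between 91287 and 110382, above all libraries of the other subsets. The part of this difference in the kTreg comparisons was not tested. Several libraries stood apart. The 3 libraries of young mouse 2 had summed B cell markers of 15202, 8260 and 6664, and the kTreg library of this mouse also had summed macrophage and monocyte markers of 19727. The 4 old rTreg libraries had summed macrophage markers from 10076 to 26208 and summed plasma cell markers from 3170 to 9383. The old aTreg library of mouse 2 had the lowest Treg sum, with *Foxp3* at 5079 against 16925 to 19813 in the other old aTreg libraries. The young kTreg library of mouse 4 had 4913 genes at 0.

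Levels of the 6 genes can be compared with each other only per length. Per kilobase of the canonical transcript, *Nt5e* had the highest mean in every group, from 933 normalized counts per kb in young rTreg cells to 2169 in young aTreg cells. *P2rx7* had means between 330 and 708 per kb, *Dpp4* between 233 and 548 and *Adora2a* between 153 and 520. *Entpd1* had means between 130 and 312 per kb and *Ada* between 97.0 and 312. Each member was therefore detected in every group, and the fewest reads behind any member value were 92.

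**Figure D1:**
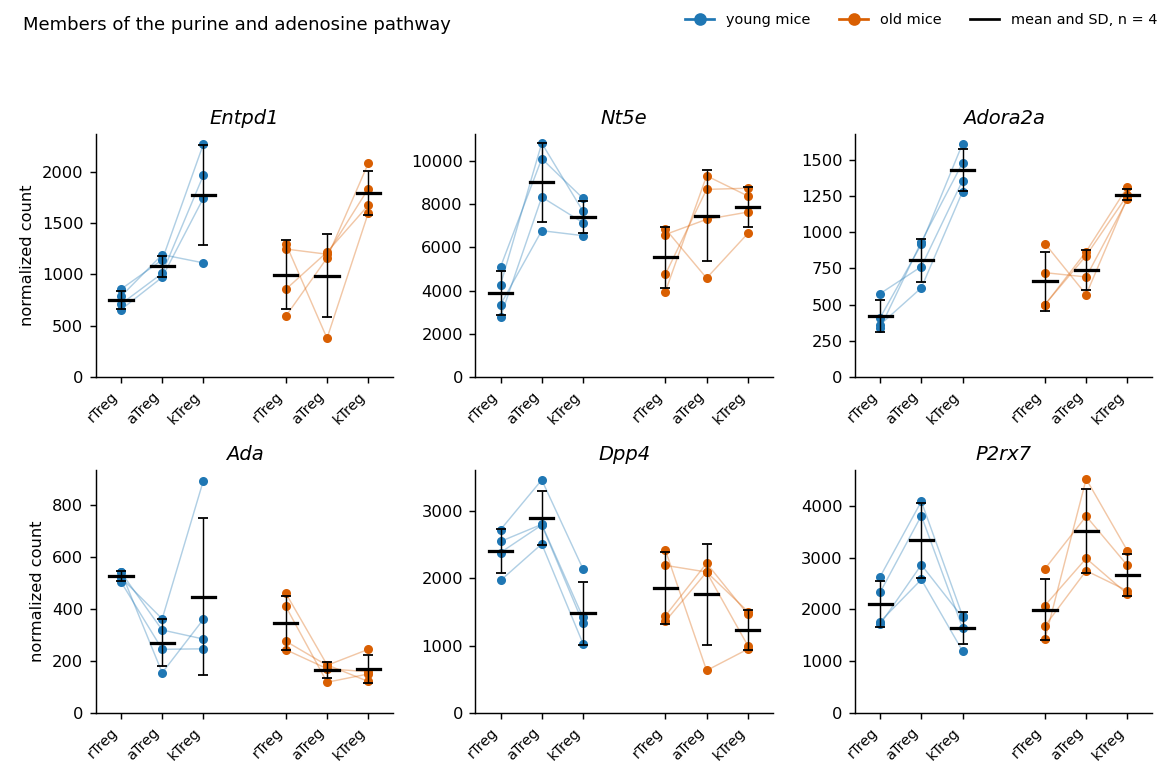
Normalized counts (y axis, linear from 0) of the 6 members in each library of rTreg, aTreg and kTreg cells from young and old mice. Points are libraries, thin lines join the libraries of 1 mouse, and black bars give the mean and SD of 4 libraries. *Adora2a* is at or above 1228 in all kTreg libraries and at or below 935 in all others, and *P2rx7* is lower in kTreg than in aTreg cells in each of the 8 mice.

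The subset comparisons ask how the adenosine pathway differs between resting, activated and KLRG1+ Treg cells. With both ages weighted equally, kTreg cells had more *Entpd1* and *Adora2a* and less *Dpp4* and *P2rx7* than aTreg cells. Against rTreg cells, they had more *Entpd1*, *Nt5e* and *Adora2a* and less *Ada* and *Dpp4*. In aTreg compared with rTreg cells, *Nt5e* and *P2rx7* were higher and *Ada* was lower. A gene counted as called when its fold change was above 1.5 and its p, adjusted over all genes tested by the method of Benjamini and Hochberg, was below 0.05. By this rule 4 of 6 members were called between kTreg and aTreg cells (2 higher, 2 lower), where 7.39% of all genes tested were called (4.13% higher, 3.26% lower). Between kTreg and rTreg cells 5 of 6 were called (3 higher, 2 lower), against 15.5% of all genes (9.37% higher, 6.09% lower). Between aTreg and rTreg cells 3 of 6 were called (2 higher, 1 lower), against 8.01% of all genes (5.23% higher, 2.78% lower). These comparisons share libraries pairwise, so their counts are not independent. Without the 3 libraries of young mouse 2, the counts were 3, 3 and 4, and without these and the libraries of young kTreg mouse 4 and old aTreg mouse 2 they were 4, 5 and 4. Where the text below leaves out the 5 libraries that stood apart, these are meant. The 4 old rTreg libraries with high macrophage marker sums stayed in, so that setting does not check the comparisons against them. In sorted bulk samples, fewer cells that express a gene and less RNA per cell cannot be told apart.

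**Figure D2:**
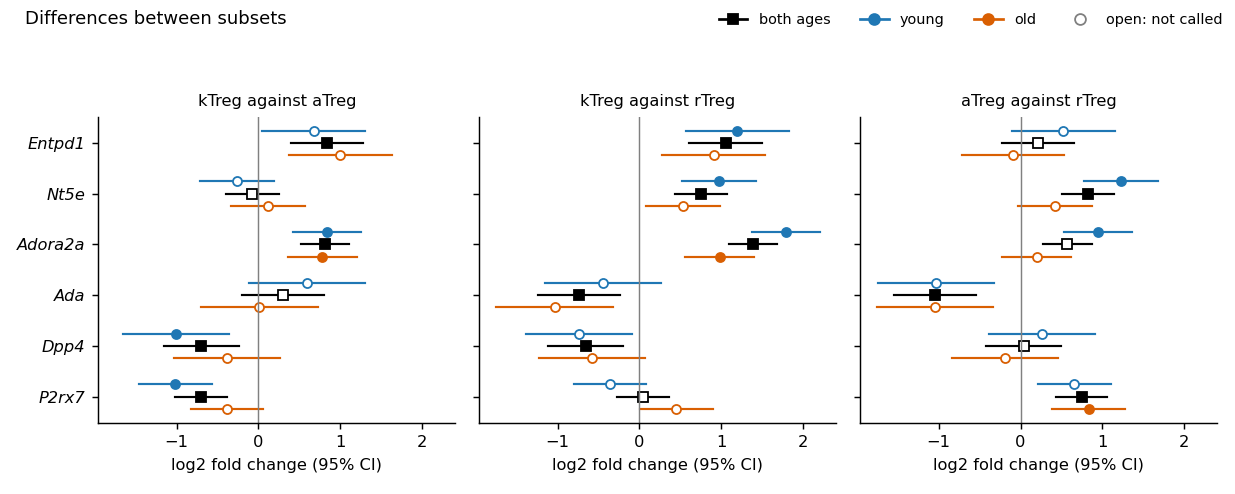
Log2 fold change with its 95% confidence interval (x axis) of each member in the 3 subset comparisons, over both ages (squares) and in young and old mice alone (circles). Filled symbols passed the adjusted p and fold thresholds. *Adora2a* is filled at both ages for kTreg against aTreg and against rTreg cells, whereas *Nt5e* lies near 0 for kTreg against aTreg cells.

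*Entpd1* (CD39) starts the breakdown of extracellular ATP. In young mice it stood at 655, 854, 709 and 784 normalized counts in rTreg, at 970, 1140, 1009 and 1191 in aTreg and at 1742, 2268, 1964 and 1111 in kTreg libraries. In old mice the values were 1246, 1299, 591 and 853 in rTreg, 1195, 376, 1158 and 1215 in aTreg and 1832, 1596, 2079 and 1671 in kTreg libraries. All old kTreg libraries were above all old rTreg and aTreg libraries, and in young mice only the kTreg library of mouse 4 fell among the aTreg values. The log2 difference between kTreg and aTreg cells was 0.84 (SE 0.21, limma adjusted p = 0.012), with kTreg higher in 7 of 8 mice, and that between kTreg and rTreg cells was 1.05 (SE 0.21, limma adjusted p = 9.0e-04), with kTreg higher in 8 of 8 mice. aTreg and rTreg cells differed by 0.22 on the log2 scale (95% interval -0.23 to 0.66, limma adjusted p = 0.65). The highest value, 2268, came from the library with the macrophage marker sum of 19727. Old kTreg libraries had macrophage marker sums from 1912 to 2805, against 226 to 324 in old aTreg libraries, and the part of these in *Entpd1* was not tested. Both kTreg calls held with the libraries of young mouse 2 left out.

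*Nt5e* (CD73) makes adenosine from AMP. It stood at 3351, 5100, 2779 and 4275 in young rTreg, at 6778, 10117, 8334 and 10834 in young aTreg and at 6547, 8278, 7149 and 7678 in young kTreg libraries. The old libraries held 6600, 6861, 3955 and 4757 in rTreg, 7304, 4578, 9320 and 8690 in aTreg and 7640, 6648, 8385 and 8747 in kTreg cells. In young mice every rTreg library was below every aTreg and kTreg library, whereas in old mice the rTreg values overlapped those of both other subsets. Over both ages, *Nt5e* was higher than in rTreg cells by 0.82 in aTreg (SE 0.15, limma adjusted p = 9.8e-04) and by 0.75 in kTreg cells (SE 0.15, limma adjusted p = 0.0010) on the log2 scale, in 7 of 8 mice each. kTreg and aTreg cells differed by -0.07 (95% interval -0.40 to 0.25, limma adjusted p = 0.81). Mean *Entpd1* was highest in old and young kTreg cells, at 1794 ± 214 and 1771 ± 490 (SD, n = 4), and mean *Nt5e* in young aTreg cells, at 9016 ± 1825 (SD, n = 4). Neighbouring groups in each of these orders overlapped.

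*Adora2a* encodes the receptor through which adenosine raises cyclic AMP. It was at 361, 576, 337 and 410 in young rTreg, at 616, 763, 935 and 917 in young aTreg and at 1281, 1358, 1480 and 1613 in young kTreg libraries. In old mice it was at 721, 922, 498 and 501 in rTreg, 691, 569, 867 and 839 in aTreg and 1228, 1239, 1314 and 1258 in kTreg libraries. No kTreg library overlapped a library of another subset, at either age. *Adora2a* was higher in kTreg than in aTreg cells by 0.81 (SE 0.14, limma adjusted p = 6.0e-04) and than in rTreg cells by 1.39 (SE 0.14, limma adjusted p = 2.5e-07) on the log2 scale, in 8 of 8 mice for both. Between aTreg and rTreg cells the log2 difference of 0.57 (SE 0.14, limma adjusted p = 0.010) passed the p threshold but not the fold threshold, and aTreg cells were higher in 6 of 8 mice. It passed both thresholds without young rTreg library 2, young aTreg library 1, old rTreg library 1 or 2 or old aTreg library 1 or 2, at log2 differences from 0.59 to 0.66. The spread among libraries was smallest in old kTreg cells, with 1260 ± 38.1 (SD, n = 4), next to 1433 ± 145 in young kTreg cells. Of neighbouring groups in the order of *Adora2a* means, old kTreg and young aTreg libraries did not overlap, and each of the other neighbours did.

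*Entpd1* and *Adora2a* were the members called higher in kTreg cells against both other subsets, so the 250 bases of GRCm39 before the start of their canonical transcripts (GENCODE M39) are shown. Both are on the plus strand, at chr19:40647964-40648213 and chr10:75152310-75152559, and are written 5′ to 3′ up to the last base before the start. Capitals would mark a match to a motif searched on both strands, and neither window holds one:

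Entpd1: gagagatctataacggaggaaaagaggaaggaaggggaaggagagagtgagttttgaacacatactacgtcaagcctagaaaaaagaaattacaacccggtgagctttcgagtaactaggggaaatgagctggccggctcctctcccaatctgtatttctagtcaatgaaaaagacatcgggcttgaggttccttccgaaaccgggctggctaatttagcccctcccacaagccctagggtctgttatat

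Adora2a: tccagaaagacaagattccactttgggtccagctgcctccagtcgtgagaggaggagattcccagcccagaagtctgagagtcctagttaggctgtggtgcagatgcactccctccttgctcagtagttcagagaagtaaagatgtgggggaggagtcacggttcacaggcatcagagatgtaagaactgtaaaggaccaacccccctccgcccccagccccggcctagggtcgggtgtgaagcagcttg

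For factors of the GATA family the letters searched were AGATAA, which 8.46% of the 16539 promoters of this length held. For forkhead factors they were TGTTTAC, held by 2.69%, and for the cyclic AMP response element TGACGTCA, held by 1.73%. The members hold 1 match in all, described with *Dpp4*, so no matches overlap. The *Entpd1* window had 47.2% GC and 8 CpG dinucleotides and the *Adora2a* window 56.0% GC and 5, against medians of 54.8% and 10 over all promoters. A window without a match shows only that these letters are not in it.

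*P2rx7*, the sensor of high ATP, followed another order. In young mice it stood at 1763, 2332, 1712 and 2634 in rTreg, at 2580, 3813, 2864 and 4089 in aTreg and at 1198, 1644, 1847 and 1876 in kTreg libraries. Old mice had 2077, 1683, 1428 and 2787 in rTreg, 2988, 2749, 4524 and 3804 in aTreg and 2299, 2362, 3137 and 2853 in kTreg libraries. aTreg cells had more *P2rx7* than the rTreg and the kTreg cells of the same mouse in 8 of 8 mice. The difference from rTreg cells was 0.75 (SE 0.15, limma adjusted p = 0.0020), and kTreg cells were below aTreg cells, at -0.70 (SE 0.15, limma adjusted p = 0.0035), both on the log2 scale. kTreg and rTreg cells differed by 0.05 (95% interval -0.27 to 0.36, limma adjusted p = 0.87), with the kTreg library lower in 3 of 4 young mice and higher in 4 of 4 old mice. Means ran from 3516 ± 809 in old aTreg to 1641 ± 313 in young kTreg cells (SD, n = 4).

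*Ada* encodes the enzyme that deaminates adenosine. It stood at 540, 543, 504 and 520 in young rTreg, 319, 154, 244 and 361 in young aTreg and 284, 360, 246 and 893 in young kTreg libraries. In old mice they were 275, 409, 243 and 460 in rTreg, 183, 118, 170 and 185 in aTreg and 244, 150, 158 and 121 in kTreg libraries. The aTreg library was below the rTreg library of the same mouse in 8 of 8 mice, and the log2 difference was -1.04 (SE 0.24, limma adjusted p = 0.0062). kTreg cells were below rTreg cells by -0.74 on the log2 scale (SE 0.24, limma adjusted p = 0.030), in 7 of 8 mice, the exception being young mouse 4, whose kTreg library held the 893. The kTreg call was lost with edgeR (adjusted p = 0.064) and, with adjusted p between 0.051 and 0.071, when any of young rTreg library 1, young kTreg libraries 1 and 3, old rTreg libraries 2 and 4, old kTreg libraries 2 and 4 or all libraries of young mouse 2 was left out. kTreg and aTreg cells differed in *Ada* by 0.30 (95% interval -0.20 to 0.80, limma adjusted p = 0.47), and by -0.17 without the 5 libraries that stood apart.

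*Dpp4* encodes the peptidase CD26. Young libraries held 2380, 2546, 1966 and 2720 in rTreg, 2789, 2799, 2508 and 3458 in aTreg and 1334, 1417, 1029 and 2138 in kTreg cells. Old libraries held 2190, 2415, 1362 and 1441 in rTreg, 2091, 630, 2090 and 2221 in aTreg and 1505, 947, 999 and 1464 in kTreg cells. The kTreg library was lower than the aTreg library in 7 of 8 mice, the exception being old mouse 2, whose aTreg library of 630 also had the low *Foxp3*. It was lower than the rTreg library in 7 of 8 mice as well, all but old mouse 4. kTreg cells were lower by -0.70 against aTreg (SE 0.22, limma adjusted p = 0.041) and by -0.66 against rTreg cells (SE 0.22, limma adjusted p = 0.034) on the log2 scale, and aTreg and rTreg cells differed by 0.04 (95% interval -0.42 to 0.50, limma adjusted p = 0.95). Both calls stood near the threshold. The call against aTreg cells was lost with no mean-variance trend (adjusted p = 0.061) and with only the groups compared (adjusted p = 0.068). Against aTreg cells, the adjusted p rose to between 0.053 and 0.090 when any of the 4 young aTreg libraries, young kTreg libraries 1 to 3, old aTreg libraries 1, 3 and 4 or old kTreg libraries 2 and 3, or all libraries of young mouse 2, were left out. Against rTreg cells it rose to 0.085 without young mouse 2 and to between 0.053 and 0.074 without any of young rTreg libraries 1, 2 and 4, young kTreg libraries 1 and 3, old rTreg libraries 1 and 2 or old kTreg libraries 2 and 3. Without the old aTreg library of mouse 2, *Dpp4* was lower in kTreg than in aTreg cells by -0.92 on the log2 scale (limma adjusted p = 6.6e-04). Means ran from 2889 ± 403 in young aTreg to 1229 ± 296 in old kTreg cells (SD, n = 4).

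The *Dpp4* promoter held the only match among the 6 members, to AGATAA, which starts 32 bases before the transcript start and is in capitals. Its window, chr2:62242576-62242825 of GRCm39 on the minus strand, had 43.6% GC and 4 CpG dinucleotides. It is written 5′ to 3′ along the gene:

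Dpp4: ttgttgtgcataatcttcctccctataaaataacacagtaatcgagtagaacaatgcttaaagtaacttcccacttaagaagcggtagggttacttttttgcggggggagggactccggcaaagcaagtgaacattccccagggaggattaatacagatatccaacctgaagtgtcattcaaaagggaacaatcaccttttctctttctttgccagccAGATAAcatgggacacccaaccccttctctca

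Within young mice alone, 3 of 6 members were called between kTreg and aTreg cells (1 higher, 2 lower), against 6.95% of all genes (3.46% higher, 3.49% lower). Between kTreg and rTreg cells 3 of 6 were called, all higher, against 15.8% of all genes (8.24% higher, 7.56% lower), and between aTreg and rTreg cells 2 of 6, both higher, against 3.35% (2.71% higher, 0.637% lower). *Adora2a* rose along rTreg, aTreg and kTreg cells, by 0.95 from rTreg to aTreg (SE 0.20, limma adjusted p = 0.0069) and by 0.84 from aTreg to kTreg cells (SE 0.20, limma adjusted p = 0.011). The aTreg to kTreg difference had an adjusted p of 0.061 without the 5 libraries that stood apart. *Nt5e* was higher in aTreg (1.23, SE 0.22, limma adjusted p = 0.0015) and kTreg (0.97, SE 0.22, limma adjusted p = 0.0030) than in rTreg cells. *Entpd1* was higher in kTreg than in rTreg cells by 1.2 (SE 0.30, limma adjusted p = 0.0073). *P2rx7* and *Dpp4* were lower in kTreg than in aTreg cells by -1.02 (SE 0.21, limma adjusted p = 0.0040) and by -1.01 (SE 0.31, limma adjusted p = 0.048), and the young kTreg libraries did not overlap the young aTreg libraries for either gene. The *Dpp4* call was lost without any of the young libraries other than young kTreg library 4, with adjusted p between 0.055 and 0.125, and without old rTreg library 1, old aTreg libraries 1 and 3 or any old kTreg library, with adjusted p between 0.051 and 0.056. Without young kTreg library 4, *Dpp4* and *Ada* were also called lower in kTreg than in rTreg cells, with adjusted p of 0.038 and 0.039, and *Ada* lower in aTreg than in rTreg cells, with an adjusted p of 0.020. Without old aTreg library 2, *Dpp4* was again called lower in kTreg than in rTreg cells (adjusted p = 0.018).

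Within old mice, *Adora2a* was the member called between kTreg and aTreg cells (0.78, SE 0.20, limma adjusted p = 0.041) and between kTreg and rTreg cells (0.98, SE 0.20, limma adjusted p = 0.0030). *P2rx7* was called higher in aTreg than in rTreg cells (0.84, SE 0.21, limma adjusted p = 0.015). The counts were 1 of 6 called higher in each comparison. Over all genes 2.2% were called between old kTreg and aTreg cells (1.33% higher, 0.866% lower), 8.86% between old kTreg and rTreg cells (5.77% higher, 3.09% lower) and 8.6% between old aTreg and rTreg cells (4.82% higher, 3.78% lower). Old libraries also differed in the summed level of *Cd40lg*, *Il7r* and *Satb1*, genes usually lower in Treg than in conventional CD4 T cells. This sum was between 19444 and 39747 in aTreg, 13346 and 21255 in kTreg and 6605 and 15680 in rTreg libraries. Its part in the old subset comparisons was not tested. *Entpd1* differed between old kTreg and aTreg cells by 1.0 (SE 0.30, limma adjusted p = 0.085) and between old kTreg and rTreg cells by 0.91 (SE 0.30, limma adjusted p = 0.058), with no overlap in either, and *Ada* between old kTreg and rTreg cells by -1.04 (SE 0.34, limma adjusted p = 0.056). With the mouse as a block, *Entpd1* and *Ada* were also called between old kTreg and rTreg cells (adjusted p = 0.049 and 0.045) and *Ada* between old aTreg and rTreg cells (adjusted p = 0.043), which made the counts 3 and 2. The *Adora2a* call between old kTreg and aTreg cells was lost without old aTreg library 1 or 2, young kTreg library 3 or any old kTreg library, with adjusted p between 0.051 and 0.207, while its log2 difference stayed between 0.66 and 0.86 over all alternatives. The *P2rx7* call was lost without old rTreg library 3 or old aTreg library 3, with adjusted p of 0.054 and 0.059. *Entpd1* between old kTreg and aTreg cells was called without young kTreg library 4 (adjusted p = 0.041) and was 0.59 without old aTreg library 2, which held the 376 (adjusted p = 0.40). It was called between old kTreg and rTreg cells without young kTreg library 4, old rTreg library 1 or 2 or old aTreg library 2, with adjusted p between 0.0089 and 0.043. *Ada* was called lower in old kTreg than in old rTreg cells without young aTreg library 2, young kTreg library 4, old rTreg library 3 or old kTreg library 1, with adjusted p between 0.010 and 0.048. It was called lower in old aTreg than in old rTreg cells without young aTreg library 2, young kTreg library 3 or 4 or old rTreg library 3, with adjusted p between 0.0093 and 0.048.

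The comparison of old with young mice asks how the pathway differs with age in each subset. No member was called, 0 of 6 in rTreg, aTreg and kTreg cells by limma, against 5.83% (4.12% higher, 1.71% lower), 2.71% (1.85% higher, 0.86% lower) and 1.26% (1.02% higher, 0.235% lower) of all genes. At an unadjusted p below 0.05 there were 2 in rTreg, 1 in aTreg and 2 in kTreg cells, edgeR called 0 in each subset, and DESeq2 called 1 in rTreg and 1 in kTreg cells. *Ada* in kTreg cells had the largest of these differences, -1.25 on the log2 scale (95% interval -1.96 to -0.54, limma adjusted p = 0.074, DESeq2 adjusted p = 0.0065). Its 4 old kTreg values, at most 244, lay just below the 4 young ones, at least 246. The mean was 446 ± 302 in young and 168 ± 53.1 in old kTreg cells (SD, n = 4), and the young mean includes the 893 of the library with 4913 genes at 0. *Ada* was also at -0.65 in rTreg (limma adjusted p = 0.27) and -0.67 in aTreg cells (limma adjusted p = 0.45), so that its point estimate was below 0 in all 3 subsets. Leaving out young kTreg library 3 brought *Ada* in kTreg cells to -1.46 and an adjusted p of 0.047. Leaving out young kTreg library 4, which held the 893, brought it to -0.85 (adjusted p = 0.19), and without the 5 libraries that stood apart it was -0.70 (adjusted p = 0.31).

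Each of the other members had an interval that reached differences of 1.5-fold or more in at least 1 subset. *P2rx7* was at 0.71 in kTreg cells (95% interval 0.26 to 1.15, limma adjusted p = 0.11), where the 4 old libraries, from 2299 to 3137, did not overlap the 4 young ones, from 1198 to 1876. It differed by -0.10 in rTreg and 0.07 in aTreg cells. *Adora2a* was at 0.63 in rTreg cells (95% interval 0.21 to 1.05, limma adjusted p = 0.062) and at -0.12 and -0.18 in aTreg and kTreg cells. Its rTreg difference was called by DESeq2 (adjusted p = 0.025) and by limma without young rTreg library 2, young kTreg library 4 or old rTreg library 3 or 4, with adjusted p between 0.019 and 0.038, and the old rTreg libraries are those with macrophage marker sums of at least 10076, whose part in it was not tested. *Nt5e* was at 0.52 in rTreg cells (95% interval 0.06 to 0.97, limma adjusted p = 0.16). *Dpp4* was at -0.87 in aTreg cells (95% interval -1.51 to -0.22, limma adjusted p = 0.17), with old libraries from 630 to 2221 and young ones from 2508 to 3458, and at -0.43 without the old library of 630 (adjusted p = 0.72). *Entpd1* was at 0.35, -0.27 and 0.06 in rTreg, aTreg and kTreg cells, with every interval spanning 0, and its aTreg value became 0.15 without the old aTreg library of 376.

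**Figure D3:**
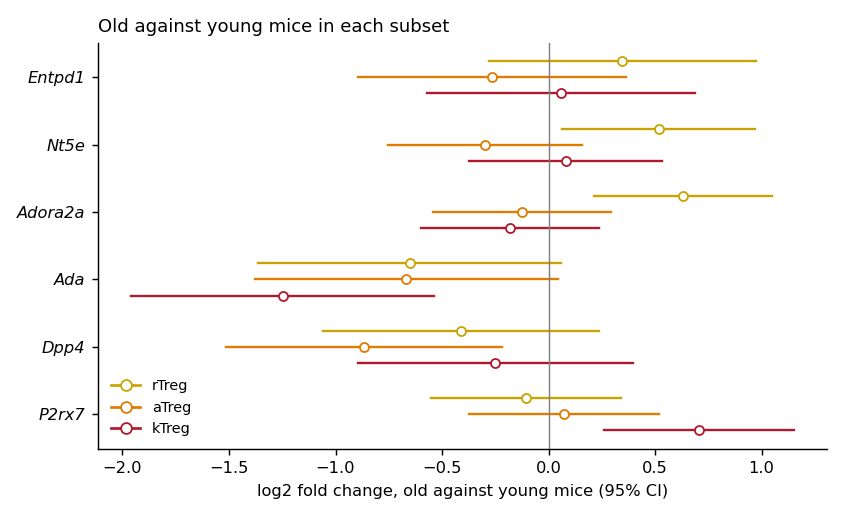
Log2 fold change of old against young mice (x axis, with 95% confidence interval) for each member in rTreg, aTreg and kTreg cells. All symbols are open because no member passed the thresholds. *Ada* lies below 0 in the 3 subsets, at -0.65, -0.67 and -1.25, and *P2rx7* lies at 0.71 in kTreg cells.

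Whether a subset difference changed with age was tested as an interaction, and again no member was called by limma, against 0.156% of all genes for kTreg against aTreg (0.0421% higher, 0.114% lower), 3.02% for kTreg against rTreg (0.998% higher, 2.03% lower) and 1.56% for aTreg against rTreg cells (0.511% higher, 1.05% lower). At an unadjusted p below 0.05 there were 1, 2 and 2 members, and edgeR and DESeq2 called 0 in each. The subset difference in *Adora2a*, old minus young, was -0.81 between kTreg and rTreg cells (limma adjusted p = 0.13) and -0.75 between aTreg and rTreg cells (limma adjusted p = 0.19), and that in *Nt5e* between aTreg and rTreg cells -0.82 (SE 0.31, limma adjusted p = 0.19), all on the log2 scale. For *P2rx7* the interaction was 0.81 between kTreg and rTreg cells (limma adjusted p = 0.16) and 0.63 between kTreg and aTreg cells (limma adjusted p = 0.53). A call in young mice that was missing in old mice was thus not shown to differ between the ages.

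Across the 24 libraries, *Entpd1* and *Adora2a* had the highest correlation among the members on the log2 scale, with a Pearson r of 0.82 and a Spearman rho of 0.83. *Nt5e* correlated with *Adora2a* at 0.77 and with *Entpd1* at 0.67 (Pearson r). These values are a description without a test, since the points share groups, mice and size factors. With the group means taken out, *Entpd1* and *Adora2a* correlated at 0.56, *Nt5e* and *Adora2a* at 0.84 and *Nt5e* and *Entpd1* at 0.75. *Dpp4*, which went against *Adora2a* over all libraries (-0.29), then went with it (0.58). Every pair of members was then above 0, from 0.03 (*Entpd1* and *Ada*) to 0.84, so this was not particular to 1 pair. The old aTreg library of mouse 2 had the lowest value of its group for every member. Its part in these correlations was not tested.

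Among all 16630 genes, those with values most like *Adora2a* over the 24 libraries were *Prdm1*, which encodes the effector Treg factor Blimp-1 (Pearson r 0.95), *Tjp3* (0.95) and *Vps54* (0.94). For *Entpd1* they were *Arhgap25* (0.93), *Lpcat1* (0.92) and *Trp53i11* (0.91), and for *Nt5e* *Rgs3* (0.92), *Atp9a* (0.89) and *Ptprv* (0.89). For *Ada* the closest were *Nedd4l* (0.85), *Oas2* (0.85) and *Cers6* (0.81). *Dpp4* was closest to the T cell receptor gene segments *Trbv16* (0.83) and *Trbj2-7* (0.83) and to *St6gal1* (0.80), and *P2rx7* to *Eya2* (0.78), *Stat4* (0.77) and *Tmtc4* (0.76).

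The rest of the pathway was read from lists of ectoenzymes, receptors, transporters and enzymes, 97 genes of which 80 were in the table and 79 were tested. Of the 79, 11 were called between kTreg and aTreg cells (8 higher, 3 lower), which is 13.9% against the 7.39% of all genes, and 15 between kTreg and rTreg cells (9 higher, 6 lower), 19.0% against 15.5%. Between aTreg and rTreg cells 11 were called (4 higher, 7 lower), 13.9% against 8.01%. The median log2 difference of the 79 genes was -0.07, -0.15 and -0.07 in these comparisons, beside -0.08, -0.01 and 0.06 over all genes tested. Without the 5 libraries that stood apart, the counts were 7, 16 and 12.

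**Figure D4:**
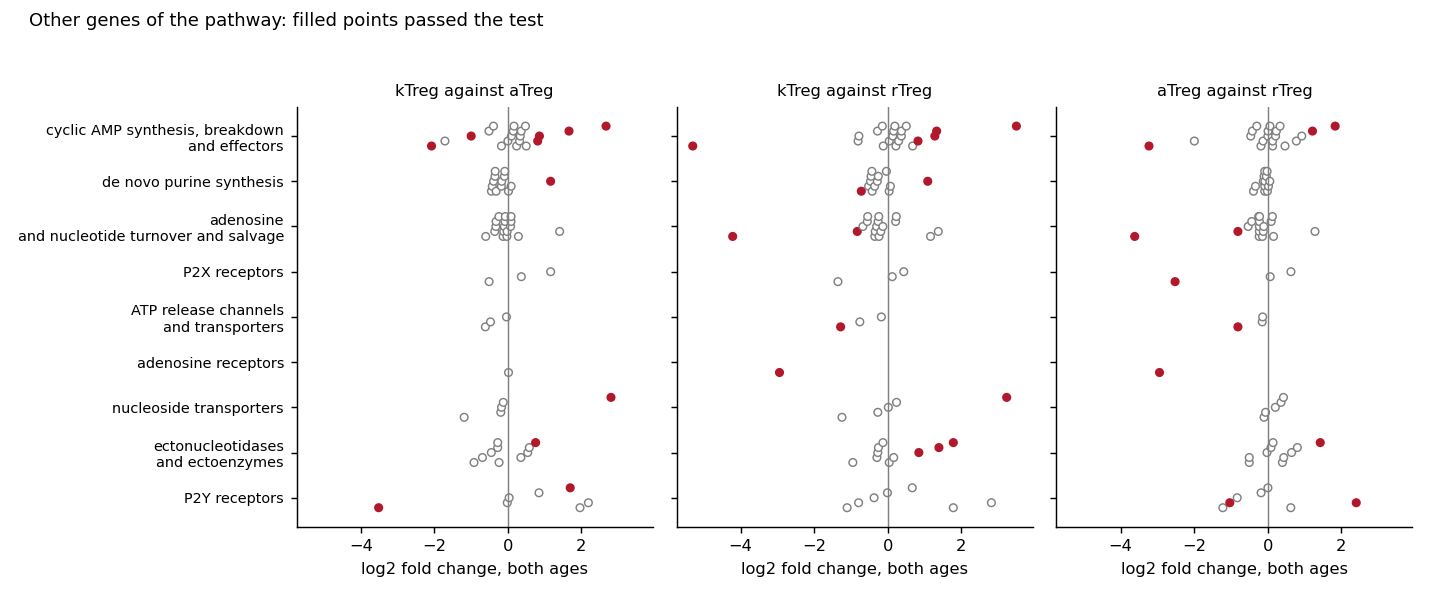
Log2 fold change over both ages (x axis) of the other pathway genes, 1 point per gene, in rows by list and in 3 panels by subset comparison. Filled points passed the adjusted p and fold thresholds: 11, 15 and 11 of 79 genes.

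Among the ectoenzymes, 1 of 10 tested genes was called between kTreg and aTreg cells, 3 of 10 between kTreg and rTreg cells and 1 of 10 between aTreg and rTreg cells, all higher, against 7.39%, 15.5% and 8.01% of all genes called. *Enpp1*, which cleaves ATP directly to AMP and pyrophosphate, was higher in kTreg than in aTreg (0.75, SE 0.15, limma adjusted p = 0.0020) and rTreg cells (0.85, SE 0.15, limma adjusted p = 2.6e-04). Its kTreg libraries held 813, 807, 809 and 1250 in young and 825, 589, 1052 and 872 in old mice, and the young ones did not overlap the young aTreg libraries, from 352 to 518, whereas the old ones overlapped the old aTreg libraries, from 455 to 742. *Cd38*, an NAD-consuming enzyme, was higher in kTreg than in rTreg cells by 1.39 (SE 0.29, limma adjusted p = 0.0011), and its highest value, 2731, was in the kTreg library of young mouse 2. *Art2a*, a gene of the ART2 family, was higher than in rTreg cells by 1.43 in aTreg cells (SE 0.29, limma adjusted p = 0.0018). In kTreg cells it was higher than in rTreg cells by 1.78 (SE 0.29, limma adjusted p = 7.8e-05). Reads of *Art2a* may be shared with its close copy *Art2b*, so these values are uncertain, and they do not show enzyme activity.

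Of other adenosine and P2X receptors, *P2rx4*, another ATP-gated channel, was detected in every library, with group means from 1031 to 1610, and was not called. It was at 0.37 between kTreg and aTreg (SE 0.14, limma adjusted p = 0.087) and 0.44 between kTreg and rTreg cells (SE 0.14, limma adjusted p = 0.024). *Adora2b*, the low-affinity adenosine receptor, held 92, 74, 610 and 21 in old rTreg libraries and at most 26 in any other library. *P2rx1* held 110, 83, 42 and 377 in old rTreg libraries and at most 21 elsewhere. Both were called lower in aTreg than in rTreg cells (-2.95, SE 0.74, and -2.52, SE 0.64, limma adjusted p = 0.011 for each), and *Adora2b* also lower in kTreg than in rTreg cells (-2.96, SE 0.74, limma adjusted p = 0.0052). These fits depend on the 1 added before the logarithm, since most values are near 0. The old rTreg libraries are the ones with macrophage marker sums of 17555, 10076, 26208 and 10140, and with platelet marker sums of 451, 635, 981 and 889. In the young kTreg library with a macrophage sum of 19727 and a platelet sum of 47.8, *P2rx1* was at 6 and *Adora2b* had no read. That is 1 library of another subset and age, and the part of these sums in the old rTreg values was not tested. *P2rx5* was at most 46 in every library and was not called. *Adora1*, *Adora3*, *P2rx2*, *P2rx3* and *P2rx6* were not analysed here.

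Among 7 P2Y receptor genes, *P2ry1*, a receptor for ADP, was higher in aTreg than in rTreg cells by 2.41 (SE 0.52, limma adjusted p = 0.0035) and lower in kTreg than in aTreg cells, at -3.52 (SE 0.52, limma adjusted p = 1.1e-04). Its old aTreg libraries held 565, 1770, 554 and 336, the 1770 in the library with the low *Foxp3*, and its young aTreg libraries at most 49. *P2ry14*, a receptor for UDP-sugars, was higher in kTreg than in aTreg cells by 1.70 (SE 0.31, limma adjusted p = 8.2e-04) and lower in aTreg than in rTreg cells, at -1.03 (SE 0.31, limma adjusted p = 0.033), with no value above 249. Of 5 nucleoside transporters, *Slc29a4* was higher in kTreg than in aTreg (2.81, SE 0.79, limma adjusted p = 0.022) and rTreg cells (3.24, SE 0.79, limma adjusted p = 0.0045), at group means up to 182. *Slc17a9*, the vesicular carrier that loads nucleotides for release, was lower in aTreg than in rTreg cells by -0.81 (SE 0.19, limma adjusted p = 0.0058). In kTreg cells it was lower than in rTreg cells by -1.28 (SE 0.19, limma adjusted p = 2.4e-05). It was the 1 called of 3 tested genes of ATP release in both comparisons. P2Y receptors had 2 of 7 called between kTreg and aTreg cells and 2 of 7 between aTreg and rTreg cells. Nucleoside transporters had 1 of 5 called between kTreg and aTreg cells and 1 of 5 between kTreg and rTreg cells. These lists had 0 called in the other subset comparisons. Over all genes, 7.39% were called between kTreg and aTreg cells, 15.5% between kTreg and rTreg cells and 8.01% between aTreg and rTreg cells.

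Inside the cell, 2 of 17 turnover and salvage genes were called lower in both aTreg and kTreg than in rTreg cells. This was 11.8% of the list in each comparison, against 8.01% of all genes for aTreg and 15.5% for kTreg cells. *Adk*, adenosine kinase, stood at 2940, 2652, 2722 and 2375 in young rTreg libraries and at 1843, 2063, 2319 and 2107 in old ones. It was lower by -0.81 in aTreg (SE 0.11, limma adjusted p = 2.4e-05) and by -0.83 in kTreg cells (SE 0.11, limma adjusted p = 4.2e-06). *Ampd1*, which deaminates AMP, was lower by -3.62 in aTreg (SE 0.65, limma adjusted p = 6.7e-04) and by -4.22 in kTreg cells (SE 0.65, limma adjusted p = 4.6e-05), from group means of 274 and 135 in young and old rTreg cells. Of 13 genes of de novo purine synthesis, *Adss1* was higher in kTreg than in aTreg (1.16, SE 0.26, limma adjusted p = 0.0051) and rTreg cells (1.09, SE 0.26, limma adjusted p = 0.0042), and *Impdh2*, a step towards guanine nucleotides, was lower in kTreg than in rTreg cells (-0.72, SE 0.14, limma adjusted p = 7.2e-04). These calls were 7.69% of the list between kTreg and aTreg cells, against 7.39% of all genes. Between kTreg and rTreg cells they were 15.4%, against 15.5% of all genes.

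Cyclic AMP genes, which act after the receptor made from *Adora2a*, had 6 of 20 called between kTreg and aTreg cells (4 higher, 2 lower), 5 of 20 between kTreg and rTreg cells (4 higher, 1 lower) and 3 of 20 between aTreg and rTreg cells (2 higher, 1 lower), against 7.39%, 15.5% and 8.01% of all genes. *Crem*, a transcription factor that cyclic AMP induces, was higher in kTreg than in aTreg (0.86, SE 0.14, limma adjusted p = 3.1e-04) and rTreg cells (1.33, SE 0.14, limma adjusted p = 4.0e-07). Its kTreg libraries held 1948, 1407, 1954 and 1555 in young and 1605, 1829, 2122 and 1921 in old mice, and of the libraries of other subsets only old aTreg library 4, at 1417, reached the lowest of them. The adenylyl cyclase gene *Adcy3* was higher in kTreg than in aTreg (0.81, SE 0.18, limma adjusted p = 0.0046) and rTreg cells (0.82, SE 0.18, limma adjusted p = 0.0019), whereas *Adcy6* was lower, at -2.08 (SE 0.67, limma adjusted p = 0.044) and -5.31 (SE 0.67, limma adjusted p = 3.8e-06). *Adcy6* was also lower in aTreg than in rTreg cells (-3.23, SE 0.67, limma adjusted p = 0.0023). Of the phosphodiesterases, which break down cyclic AMP, *Pde4a* was higher in kTreg than in rTreg cells (3.5, SE 0.54, limma adjusted p = 4.8e-05). It was also higher in aTreg than in rTreg cells (1.84, SE 0.54, limma adjusted p = 0.030), and it was called higher in kTreg than in aTreg cells. *Pde3b* was higher in aTreg than in rTreg (1.22, SE 0.21, limma adjusted p = 4.7e-04) and lower in kTreg than in aTreg cells (-1.0, SE 0.21, limma adjusted p = 0.0028). *Rapgef3*, a cyclic AMP sensor, was higher in kTreg than in aTreg cells (2.67, SE 0.81, limma adjusted p = 0.033) at values of at most 141.

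**Figure D5:**
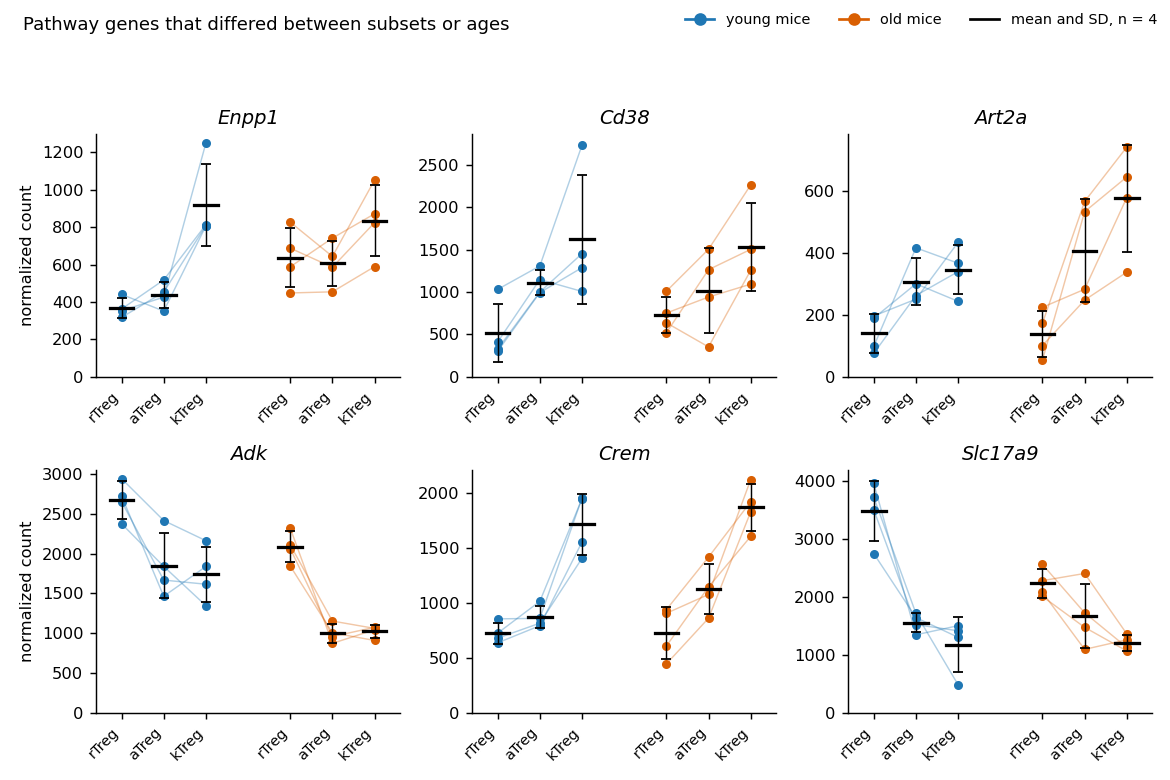
Normalized counts (y axis, linear from 0) of 6 called pathway genes in each library, with thin lines joining the libraries of 1 mouse and black bars giving the mean and SD of 4 libraries. *Crem* and *Enpp1* have their highest group means in kTreg cells at both ages, and *Adk* is lower in old than in young aTreg and kTreg cells.

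With age, the pathway genes gave 6 of 79 called in rTreg (all higher, 7.59% against 5.83% of all genes, 4.12% higher), 4 of 79 in aTreg (2 higher, 2 lower, 5.06% against 2.71%) and 3 of 79 in kTreg cells (2 higher, 1 lower, 3.8% against 1.26%). Their median log2 differences were 0.03, 0.05 and 0.11, beside -0.08, 0.01 and 0.12 over all genes tested. *P2ry1* was higher in old than in young mice in all 3 subsets, by 4.38 in rTreg (SE 0.74, limma adjusted p = 6.6e-04), 4.25 in aTreg (SE 0.74, limma adjusted p = 0.0016) and 5.98 in kTreg cells (SE 0.74, limma adjusted p = 1.3e-04). *Adk* was lower in old mice by -0.87 in aTreg (SE 0.15, limma adjusted p = 0.0014) and by -0.75 in kTreg cells (SE 0.15, limma adjusted p = 0.012), with old aTreg values from 873 to 1153 and young ones from 1464 to 2414. *Pde3b* was higher in old rTreg (1.19, SE 0.30, limma adjusted p = 0.018) and old aTreg cells (1.58, SE 0.30, limma adjusted p = 0.0033), *Pde4b* in old kTreg cells (0.59, SE 0.13, limma adjusted p = 0.023), and the nucleoside transporter *Slc29a1* was lower in old aTreg cells (-0.79, SE 0.17, limma adjusted p = 0.012). In old rTreg cells *Enpp1* (0.76, SE 0.21, limma adjusted p = 0.034), *Adss1* (1.86, SE 0.37, limma adjusted p = 0.0033), *Adora2b* (4.30, SE 1.04, limma adjusted p = 0.014) and *P2rx1* (5.09, SE 0.90, limma adjusted p = 0.0010) were also higher. All 6 rTreg calls, those of *P2ry1* and *Pde3b* included, come from the libraries with the macrophage and plasma cell marker sums given above. The old rTreg libraries also had summed platelet markers from 451 to 981, against 42.2 to 73.8 in young rTreg libraries. Their summed NK cell markers were from 715 to 1585, against 225 to 446 in young rTreg libraries. The part of these sums in the rTreg calls was not tested. The summed level of *Cd40lg*, *Il7r* and *Satb1*, genes usually lower in Treg than in conventional CD4 T cells, also differed with age beside the other calls. It was between 19444 and 39747 in old and 9394 and 10244 in young aTreg libraries, and between 13346 and 21255 in old and 10569 and 13447 in young kTreg libraries, and its part in the aTreg and kTreg calls was not tested. In the interaction test 1 of the 79 pathway genes was called, *P2rx1* between aTreg and rTreg cells (-6.35, SE 1.27, limma adjusted p = 0.016). Of all genes, 1.56% were called in this interaction (1.05% lower). Outside the old rTreg libraries *P2rx1* was near 0, so this fit depends on the 1 added before the logarithm. The part of the marker sums of the old rTreg libraries in it was not tested.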

How the data were processed

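Bulk RNA-seq was done on 24 libraries of rTreg, aTreg and kTreg cells from 4 young and 4 old mice. Libraries came from SMART-Seq v4 cDNA, with paired reads of 150 bases. Per the labels, the authors used HISAT2 2.2.1 with the GRCm39 build, SAMtools 1.13, HTSeq 1.99.2 for counting and DESeq2 1.44.0. The deposited values are a normalized signal, the reads of a gene divided by 1 size factor per library. The annotation release, the strand setting and how multiply mapped reads were counted are not given in the sources used here. Every listed gene had at least 100 reads over all libraries, and genes below that were not analysed here. Intervals from reads would cover counting error only, because PCR copies without molecular identifiers are not independent molecules.

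Whole reads were recovered from the steps between values, and 100% of values were whole within 0.001 reads. GENCODE M39 on GRCm39 gave symbols and positions for 17353 identifiers, and 111 kept their identifier. limma 3.58.1 (R 4.3.3) with a mean-variance trend was fitted to log2(value + 1) of 16630 genes in a model of 6 groups, so fold changes are on this scale and understate changes of low genes. Standard errors and 95% intervals are from this fit. edgeR 4.0.16 (quasi-likelihood) and DESeq2 1.42.0 were run on the recovered reads as alternatives. The fits were tested on simulated counts with set fold changes. Those counts held no mouse effect and no libraries that stand apart, so the test does not cover these features of the data. No test was run on the lists as sets.

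The members and lists were chosen with earlier results of these data known. The genes named are the members, the 3 genes most like each, the adenosine and P2X receptors, and up to 3 called genes with the smallest p per list and direction. The lists cover ectonucleotidases and ectoenzymes, adenosine, P2X and P2Y receptors, nucleoside transporters, ATP release, nucleotide turnover and salvage, de novo purine synthesis and cyclic AMP. Beside *Klrg1* and *Cd44*, a further gene named by the rule as a check of the sort is not reported here.

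The series' design text says that the subsets came from the same mice, so the mouse number is a true pairing. Correlations of library deviations from group means had medians of 0.153 (rTreg and aTreg), 0.0911 (rTreg and kTreg) and 0.115 (aTreg and kTreg) within a mouse, against -0.0331, -0.0340 and -0.0507 between mice. The mouse block used a consensus correlation of 0.0620. Python 3.11.15 and matplotlib 3.10.9 were used for tables and plots.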

Additional observations from a re-analysis of the deposited data

Results flagged for a closer look

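In 2 of 36 groups of 4 values, 1 library stood far from the other 3, where chance gives about 1 in 20 groups. *Entpd1* in the old aTreg library of mouse 2 was at 376, against 1158 to 1215 in the other old aTreg libraries, and the gap took up 0.959 of the range of the group. *Dpp4* in the same library was at 630, against 2090 to 2221, and the gap took up 0.952 of the range. This library also had *Foxp3* at 5079 and *P2ry1* at 1770, and its summed level of *Cd40lg*, *Il7r* and *Satb1*, genes usually lower in Treg than in conventional CD4 T cells, was 39747 against 19444 to 28657 in the other old aTreg libraries. The part of this library's make-up in the 2 values was not tested.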

How the results depend on the processing

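Of 3510 values under alternatives (90 results, 39 settings), 3320 kept direction and side of the threshold, and 16 of the 23 called results stayed called throughout. The settings that left out young mouse 2 or the 5 libraries that stand apart were chosen after the data were seen. In 70 cases a call was lost and in 70 gained, and the report names those that 1 library decided. The cause was not tested.

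Counts of members called moved as follows, the fold threshold being kept with an unadjusted p. For kTreg against rTreg cells, both ages, 5 became 3 without young mouse 2 (3 to 5 leaving out 1 library). In young mice, kTreg against rTreg went from 3 to 5 without the 5 libraries that stand apart (3 to 5 leaving out 1 library), and aTreg against rTreg from 2 to 4 with an unadjusted p. In old mice, kTreg against aTreg went from 1 to 2 with an unadjusted p or DESeq2 and to 0 with edgeR or no mean-variance trend (0 to 2 leaving out 1 library). Old kTreg against rTreg went from 1 to 3 with an unadjusted p, the replicate block, DESeq2 or without the 5 libraries (1 to 3 leaving out 1 library). Old aTreg against rTreg went from 1 to 2 with an unadjusted p, the replicate block or DESeq2, to 3 without the 5 libraries and to 0 with only the groups compared (0 to 2 leaving out 1 library). The block moved no other count by over 1.5 times. For age, 0 became 1 in rTreg cells with an unadjusted p, DESeq2 or without young mouse 2, and 2 without the 5 libraries (0 to 1 leaving out 1 library). In aTreg cells it became 1 with an unadjusted p, and in kTreg cells 2 with an unadjusted p and 1 with DESeq2 (0 to 1 leaving out 1 library). The interactions had 1, 2 and 2 with an unadjusted p.

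Pathway genes called went from 11 to 7 for kTreg against aTreg without the 5 libraries and from 15 to 26 for kTreg against rTreg with no fold threshold. With age, 6 in rTreg became 10 with an unadjusted p or without the 5 libraries and 3 with only the groups compared (4 to 10 leaving out 1 library). In aTreg 4 became 10 with an unadjusted p and 7 with only the groups compared (3 to 8 leaving out 1 library). In kTreg 3 became 11 with an unadjusted p, 5 with DESeq2 and 0 with only the groups compared (1 to 4 leaving out 1 library).

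In 50 cases the sign of a log2 difference turned, none of them called. Without the 5 libraries, *Entpd1* became 0.32 (old aTreg against rTreg), 0.18 (age, aTreg), -0.051 (age, kTreg) and -0.23 (interaction of kTreg against aTreg), and *Nt5e* -0.10 (old kTreg against aTreg). *Ada* between kTreg and aTreg cells became -0.17 (both ages), -0.20 (young), -0.14 (old) and 0.063 (interaction), and *Dpp4* 0.25 (old aTreg against rTreg) and 0.036 (age, kTreg). edgeR gave *Entpd1* -0.00020 for age in kTreg cells, TMM factors gave *Ada* -0.0093 (old kTreg against aTreg) and 0.013 (interaction of aTreg against rTreg), and equal totals gave *Adora2a* 0.036 (interaction of kTreg against aTreg) and *P2rx7* -0.012 (age, aTreg). Leaving out 1 library gave *Entpd1* -0.32 to 0.32 (old aTreg against rTreg), -0.42 to 0.15 (age, aTreg), -0.15 to 0.19 (age, kTreg) and -0.088 to 0.47 (interaction of kTreg against aTreg), and *Nt5e* -0.10 to 0.24 (old kTreg against aTreg). It gave *Adora2a* -0.18 to 0.065 (interaction of kTreg against aTreg), *Ada* -0.18 to 0.15 (old kTreg against aTreg) and -0.26 to 0.15 (interaction of aTreg against rTreg), and *Dpp4* -0.045 to 0.26 (aTreg against rTreg, both ages) and -0.36 to 0.25 (old). It gave *P2rx7* -0.027 to 0.13 (kTreg against rTreg, both ages), -0.28 to 0.041 (age, rTreg) and -0.057 to 0.18 (age, aTreg).

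Each group has 4 mice, the fewest reads behind a member's value were 92, genes near 0 have fitted values that depend on the added 1, and most libraries that stand apart belong to 1 group or mouse.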
